A study of Salmo salar with 8 samples.

Results

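Nuclei of the Atlantic salmon gill in 4 developmental states were read for 3 genes: abca12, LOC106568942 (ceramide synthase 2-like) and LOC106565281 (listed by RefSeq as tgm5l, a transglutaminase 5-like gene). They were taken by name, 3 of the 34514 genes in the count tables. Mammalian relatives of each take part in building the lipid and protein barrier of the epidermis. The choice was made with earlier results of these data known. The study had already described abca12 in these nuclei as broadly expressed, with more in pavement cells and in seawater mitochondrion-rich, vascular and non-differentiated cells. The comparison of abca12 between pavement and other nuclei is therefore not independent of its choice. Whether that comparison is independent of the choice of LOC106568942 and LOC106565281 is not known. Gill from Salmo salar that began as parr in fresh water was sampled in constant light (T1), after 8 weeks of short photoperiod with 8 h light and 16 h dark (T2), after a further 8 weeks back in constant light (T3), and after those fish had spent 24 h in seawater (T4), with 2 samples per state. These durations are those of the labels; the study's methods give shorter times on each photoperiod before sampling, and the study follows the 4 states as steps of smoltification, the change that readies parr for seawater, and of seawater transfer. Single nuclei were sequenced from snap-frozen tissue with droplet 3′ libraries, and each value is a count of unique molecular identifiers (UMIs), the tags that mark single captured RNA molecules. The labels name no genetic change in these fish and do not say whether the 2 samples of a state came from separate fish, so p-values measure only the spread between these samples.

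The outer barrier of mammalian skin is built from lipids and cross-linked proteins. ABCA12 is a membrane transporter that loads ceramide lipids into the granules from which keratinocytes secrete them, and its loss causes severe ichthyosis in humans. Ceramide synthases join a fatty acid to a sphingoid base, and the CERS2 enzyme of mammals prefers very long acyl chains. Transglutaminases cross-link proteins, and in human skin TGM5 acts on the cornified envelope, the protein shell under the plasma membrane. The fish gill carries no cornified layer of the mammalian kind, and most of its surface is covered by pavement cells, thin epithelial cells that face the water.

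The tables held 19709 nuclei and 27390978 UMIs, with 1748 to 3373 nuclei and 2770081 to 4383507 UMIs per sample, and 18844 nuclei had fewer than 2500 detected genes. The median nucleus had 849 UMIs, and sample medians ran from 638 in T2 replicate 1, which also held 710 nuclei under 500 UMIs, to 1031 in T2 replicate 2. In all, 49 barcodes (0.249%) occurred in more than 1 library, with 0 to 6 shared by any pair of libraries. Pavement nuclei were picked by LOC106587392, the ammonium transporter Rh type C gene: a nucleus was gate-high where it carried at least 3 of its UMIs and at least 4 per 1000 of all UMIs. This gave 3392 gate-high nuclei (17.2%) and 16317 other nuclei. The other genes used as pavement markers ran with the gate, since 6 of 6 were higher in gate-high nuclei by a ratio of 4.09 to 5.59. Of the markers of T cells, ionocytes, erythrocytes, myeloid, vascular and pillar or collagen cells none was higher. The study names no clear marker gene of pavement cells, so the pavement list may rest on these same data. Its agreement describes the gate and does not test what the nuclei are. One of 4 goblet markers was higher, LOC106608496, which the pavement list holds too. The gate is a range rather than a cell type, because 1220 nuclei (6.19%) lay between 3 and 5 per 1000.

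Gate-high nuclei made up 16.6% and 7.0% of the T1 samples, 21.2% and 14.0% at T2, 19.2% and 20.9% at T3, and 15.2% and 19.99% at T4. Both T1 shares lay below both T3 shares, every other pair of states overlapped, and with 2 against 2 no permutation test can pass the threshold, so the shares are given as values. Their depth was uneven, with a median of 704.5 UMIs per gate-high nucleus in T2 replicate 1 and 4430 in T2 replicate 2.

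The transporter abca12 was detected broadly and was higher in gate-high than in other nuclei. It held 22079 UMIs in 8071 nuclei (41.0%), and 48.2% of these UMIs lay in gate-high nuclei, which carried 22.9% of all UMIs. In gate-high nuclei its level, in CPM (UMIs of the gene per 1000000 UMIs, summed over the nuclei of a sample), was 1527 and 1406 at T1, 1196 and 1248 at T2, 1674 and 2320 at T3, and 2084 and 2566 at T4. Other nuclei of the same samples had 393 and 393, 407 and 338, 615 and 569, and 770 and 762. Every gate-high value lay above every value in other nuclei, by 2.71 to 4.08 times within a sample. The means were 1753 ± 512 and 531 ± 173 CPM (SD, n = 8), a within-sample difference of 1.73 on the log2(value + 1) scale that was positive in 8 of 8 samples (exact two-sided sign-flip permutation test, p = 0.0078, the smallest that 8 samples allow; exact tests were read at 0.05). In the edgeR quasi-likelihood fit over all genes, with the sample as a block, abca12 was higher in gate-high nuclei by a log2 fold change of 2.01 ± 0.11 (SE; Benjamini-Hochberg adjusted p = 4.03e-17). In that fit 47% of the 22660 genes tested passed an adjusted p of 0.01, 4700 higher and 5954 lower, and the split was 2979 and 8526 when samples were scaled by library size instead of by TMM (trimmed mean of M values).

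LOC106568942, one of several ceramide synthase 2-like genes of the salmon, was also higher in gate-high nuclei than in the other nuclei as a whole. It held 2808 UMIs in 1975 nuclei (10.0%), of which 62.6% lay in gate-high nuclei. Its level there was 296 and 289 CPM at T1, 310 and 199 at T2, 308 and 350 at T3, and 206 and 355 at T4. In other nuclei it was 48.2 and 46.2, 59.1 and 41.8, 46.5 and 49.6, and 39.7 and 76.2. The classes again did not overlap, with ratios of 4.66 to 7.06 within samples and means of 289 ± 58.5 and 50.9 ± 11.8 CPM (SD, n = 8). The within-sample difference was 2.48 on the log2(value + 1) scale and positive in 8 of 8 samples (exact sign-flip permutation p = 0.0078). The edgeR fold change was 2.78 ± 0.11 on the log2 scale (SE; adjusted p = 1.77e-20), and with abca12 it passed under all 14 alternative settings.

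LOC106565281, the transglutaminase, did not follow the gate. It was rare, with 499 UMIs in 425 nuclei (2.16%), and 21.0% of its UMIs lay in gate-high nuclei, close to the 22.9% of all UMIs found there. Its level in gate-high nuclei was 5.38 and 2.22 CPM at T1, 8.58 and 2.18 at T2, 12.8 and 44.9 at T3, and 23.8 and 53.0 at T4. In other nuclei it was 5.36 and 2.04, 16.3 and 7.91, 17.1 and 20.6, and 26.1 and 55.3. The classes overlapped almost completely, at 19.1 ± 19.8 and 18.8 ± 16.8 CPM (SD, n = 8), and only T1 replicates 1 and 2 and T3 replicate 2 were higher in gate-high nuclei. Neither test passed, with a mean log2 difference of -0.22 (exact sign-flip permutation p = 0.42) and an edgeR log2 fold change of 0.18 ± 0.22 (SE; adjusted p = 0.485). The direction depended on where the gate was set: at 2 per 1000 the edgeR log2 fold change was 0.77 (adjusted p = 0.00104), and at 8 per 1000 it was -0.94 (adjusted p = 0.0128).

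**Figure D1:**
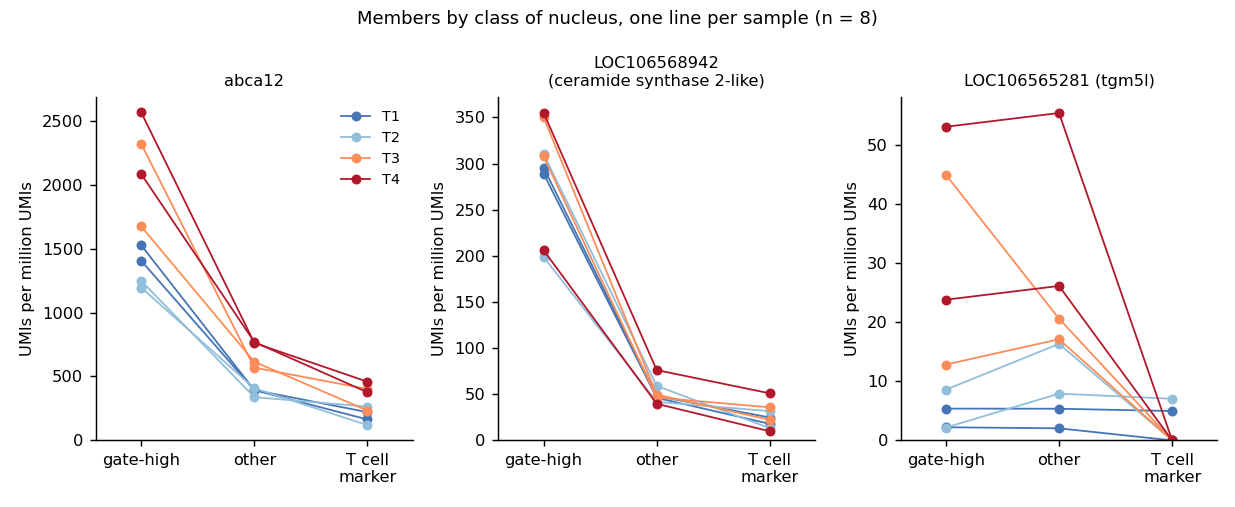
Level of each gene (vertical axis, CPM of the class) in gate-high nuclei, other nuclei and T cell marker nuclei of each sample; a line joins the 3 classes of one sample, coloured by state. For abca12 and LOC106568942 every line runs lower in other than in gate-high nuclei, from means of 1753 to 531 and of 289 to 50.9 CPM, while the lines of LOC106565281 run level or cross.

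The same contrast appeared along the range of LOC106587392. From nuclei without a UMI of that gene through those with under 1, 1 to 2, 2 to 4, 4 to 8 and at least 8 per 1000, the mean level of abca12 over samples was 372, 338, 564, 1083, 1604 and 1946 CPM. LOC106568942 ran 41.7, 20.2, 55.1, 112, 233 and 371 CPM over the same steps. Both were highest in the top step, and neither was above its level in gate-gene-free nuclei until 1 per 1000 was passed. LOC106565281 instead went from 12.7 CPM in nuclei without the gate gene to 31.7 at 2 to 4 per 1000 and 10.4 in the top step, the last on 21 UMIs.

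Droplets can hold free RNA from other cells, so each gene was also read in 432 nuclei outside the gate that carried at least 2 UMIs of T cell receptor and signalling genes. There abca12 was at 280 ± 120 CPM (SD, n = 8), LOC106568942 at 25.8 ± 13.4 and LOC106565281 at 1.501 ± 2.834. The gate gene LOC106587392 was at 775 ± 291 CPM there and at 971 ± 133 in other nuclei. It was found in 57.4% of T cell marker and 55.0% of other nuclei. Its share was higher in other nuclei in 0 of 8 samples and its CPM in 7 of 8. A UMI of abca12 was found in 77.3% of gate-high nuclei, 33.4% of other nuclei and 22.9% of T cell marker nuclei (95% exact Clopper-Pearson interval 19.0% to 27.2%, for counting error only). The middle sample had a median of 1171.2, 863 and 902.2 UMIs per nucleus in the 3 classes. After nuclei were thinned to 500 UMIs each, the median sample still had 51.0%, 20.3% and 11.8%. Of the T cell marker nuclei 355 came from T1 and T2 and 77 from T3 and T4, so pooled shares weigh the states differently in each class. Within T1 and T2 abca12 was found in 26.2% of other and 20.6% of T cell marker nuclei, and within T3 and T4 in 40.9% and 33.8%. Its share was higher in other nuclei in 7 of 8 samples and its CPM in 8 of 8. LOC106568942 was found in 32.5% of gate-high nuclei and in 5.36% of other nuclei, the latter within the interval around its 4.17% in T cell marker nuclei (2.49% to 6.51%). Its share was higher in other than in T cell marker nuclei in 4 of 8 samples and its CPM in 8 of 8, so the measures differed on how far it stood above this level outside the gate as a whole. LOC106565281 was found in 2.68% of gate-high, 2.05% of other and 0.69% of T cell marker nuclei (0.14% to 2.02%). Within T1 and T2 the last 2 shares were 0.831% and 0.845%, and within T3 and T4 they were 3.31% and 0%.

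Clusters gave a finer view, drawn without the 3 genes, the gate gene or any listed gene. Of 20 clusters, 19 had at least 100 nuclei. Cluster 1 was pavement cell-like by 6 of 6 markers, cluster 2 T cell-like, cluster 6 ionocyte-like, cluster 10 goblet cell-like and cluster 17 vascular-like. The pavement markers were not left out when the clusters were drawn, so these names are descriptions. Cluster 9 also had all 6 pavement markers above the rest, but none among its leading genes, which were carbonic anhydrase 12 genes, and cluster 8 was led by unnamed loci and LOC106562604, a CUB and zona pellucida-like gene, and matched no marker list. Clusters 1, 9 and 8 held 57.4%, 20.6% and 7.99% of gate-high nuclei.

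The level of abca12 was 1907 ± 589 CPM in cluster 1, 1721 ± 545 in cluster 9 and 1184 ± 423 in cluster 8 (SD, n = 8). The ionocyte-like cluster 6 followed with 823 ± 122, and the lowest were cluster 11 with 197 ± 78.3 and the collagen marker cluster 7 with 202 ± 55.4. The vascular-like cluster 17 had 246 ± 74.8 CPM, although the study names vascular cells among those with more abca12. Its vascular clusters were not matched to the clusters drawn here. Clusters 1, 9 and 8 overlapped in their samples, whereas every sample of cluster 6 lay above every sample of clusters 7 and 11. LOC106568942 had another leading cluster: the goblet cell-like cluster 10 had 385 ± 73.6 CPM, cluster 1 343 ± 85.1 and cluster 9 225 ± 55.0. Clusters 10 and 1 overlapped, and cluster 10 had one of the lower abca12 levels, 288 ± 150 CPM. The 979 nuclei of cluster 10 lay nearly all outside the gate, with 31 inside, and a UMI of LOC106568942 was found in 24.6% of them.

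Summed over all samples, LOC106565281 was concentrated in cluster 8, which held 39.1% of its UMIs in 5.90% of the nuclei. Its level there was 53.6 and 30.6 CPM at T1, 71.7 and 16.3 at T2, 96.8 and 159 at T3, and 109 and 425 at T4, with UMIs in 14.2% of nuclei. In the 4 T3 and T4 samples cluster 8 was above each of the other clusters with at least 100 nuclei except cluster 18, which reached 112 in T4 replicate 1 on 6 UMIs. At T2 the goblet cell-like cluster 10 had the higher mean, 65.2 ± 11.4 CPM on 13 UMIs against 44.0 ± 39.2 in cluster 8 (SD, n = 2). Clusters 12, 13, 15, 17 and 19 held 0 UMIs, which allows 6.91 to 10.7 CPM (3 counts per cluster). Over the 19 clusters the pooled levels of abca12 and LOC106568942 had a Pearson correlation of 0.61 on the log2(value + 1) scale, and abca12 and the gate gene 0.88. These describe clusters that share the same 8 libraries and are not replicates.

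**Figure D2:**
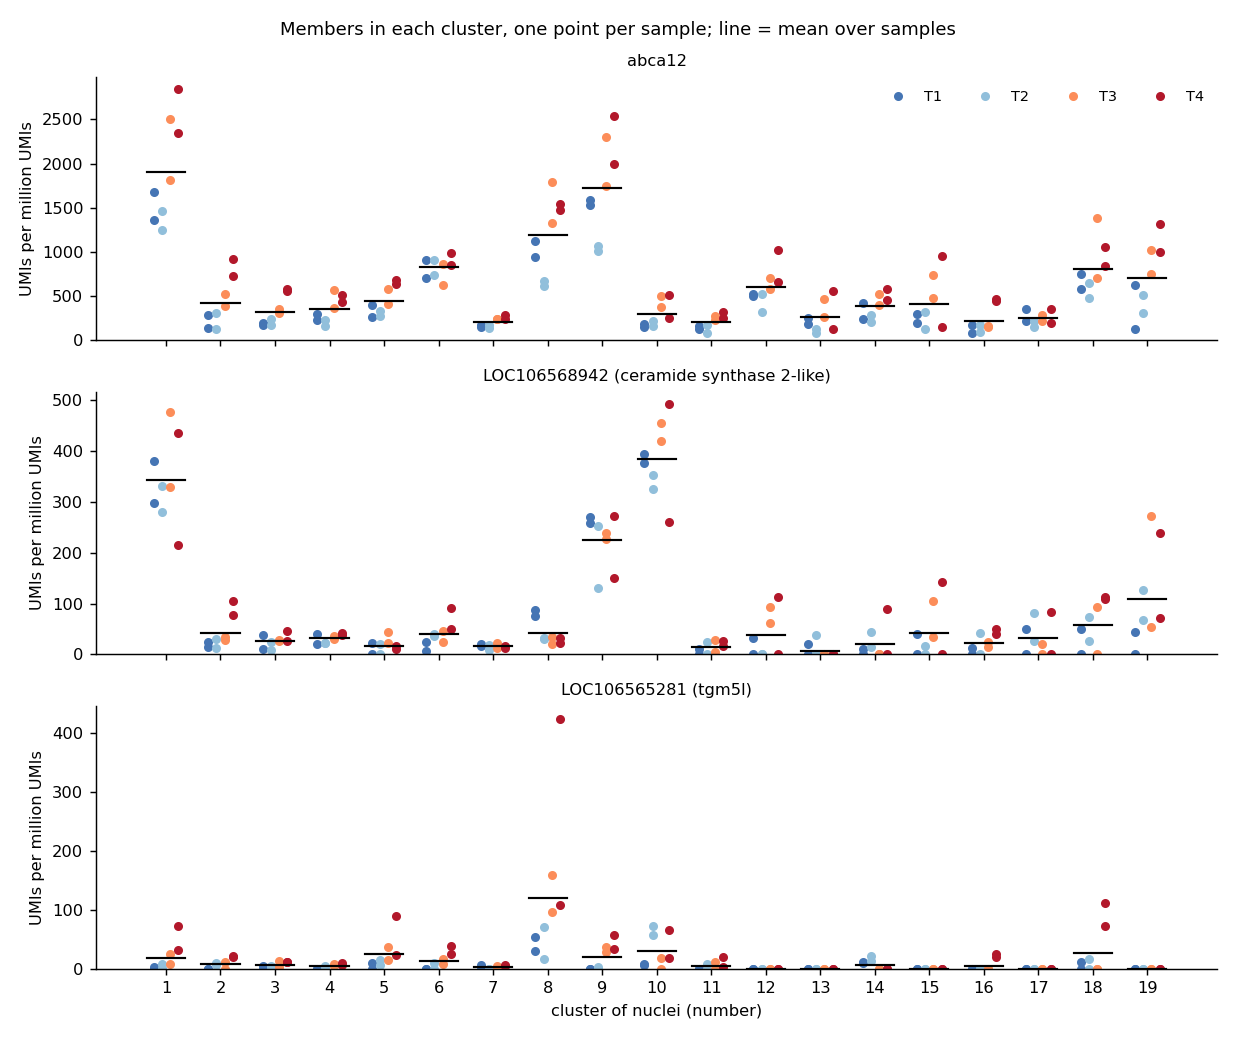
Level of each gene (vertical axis, CPM) in each cluster with at least 100 nuclei (horizontal axis, cluster number), 1 point per sample with at least 10 nuclei, coloured by state, with a line at the mean. abca12 stands highest in clusters 1, 9 and 8, LOC106568942 in clusters 10, 1 and 9 with means of 385, 343 and 225 CPM, and LOC106565281 in cluster 8.

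Genes were ranked by how closely their level followed each of the 3 over the 19 clusters (Pearson correlation of log2(value + 1), 10826 genes with at least 500 UMIs). The pattern of abca12 was most like those of LOC106564099 (mesothelin-like, r = 0.97), spit2 (a Kunitz-type protease inhibitor, r = 0.967) and LOC106573777 (nuclear factor 7, brain-like, r = 0.965). That of LOC106568942 was most like LOC106588494 (annexin A2-like, r = 0.907), npdc1 (r = 0.846) and LOC106584172 (GADD45 alpha-like, r = 0.844). LOC106565281 was matched less closely, by LOC106605224 (r = 0.816), LOC106610593 (r = 0.795) and aco1, the soluble aconitase (r = 0.788).

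Detection in the same nucleus was then compared with the number expected if the genes were independent within 5 depth classes of each sample. No member was detected in 55.7% of nuclei and abca12 alone in 32.4%, and 49 nuclei, with a median of 4243 UMIs, had all 3. Over all nuclei abca12 and LOC106568942 were found together in 1420 nuclei against 1062 expected, 1.34 times as many, with more than expected in 8 of 8 samples (exact sign-flip permutation p = 0.0078; adjusted over the 9 comparisons of 3 pairs and 3 classes, 0.0351). Within gate-high nuclei the same pair was found in 962 against 938 expected (1.03 times, 6 of 8 samples above; exact p = 0.0547, adjusted 0.0985). In other nuclei it was found in 458 against 355 (1.29 times, 8 of 8 samples; exact p = 0.0078, adjusted 0.0351). The ratio was thus lower in each class than over all nuclei. With abca12 in 77.3% of gate-high and 33.4% of other nuclei, the gate-high ratio has little room above 1, so the 2 classes cannot be compared by it. After thinning to 500 UMIs the gate-high pair was found in 253 against 246.8 expected (1.025 times, exact sign-flip p = 0.789).

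The transglutaminase paired differently. With LOC106568942 it was found in 20 gate-high nuclei against 34.96 expected, 0.572 times as many. The number was below that expected in 7 of 8 samples (exact sign-flip permutation p = 0.0156, adjusted over the 9 comparisons 0.0468). The T1 samples had 2 and 0 such nuclei against 2.2 and 0.36 expected, and the T2 samples 1 and 0 against 1.19 and 1.31. At counts this low the signs are not evenly split even for independent genes, so no conclusion is drawn from this p. With 500 UMIs per nucleus the pair rested on 4 nuclei against 5.07 expected and did not pass (exact sign-flip p = 0.312). With abca12 the transglutaminase was found in 237 other nuclei against 168 expected (1.41 times, 6 of 8 samples, exact sign-flip p = 0.0312, adjusted 0.0702). In gate-high nuclei that pair was found in 75 against 80.4 (0.933 times, exact sign-flip p = 0.141, adjusted 0.181). Of the 425 nuclei with a UMI of LOC106565281, 312 also had one of abca12 and 53 had one of LOC106568942.

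**Figure D3:**
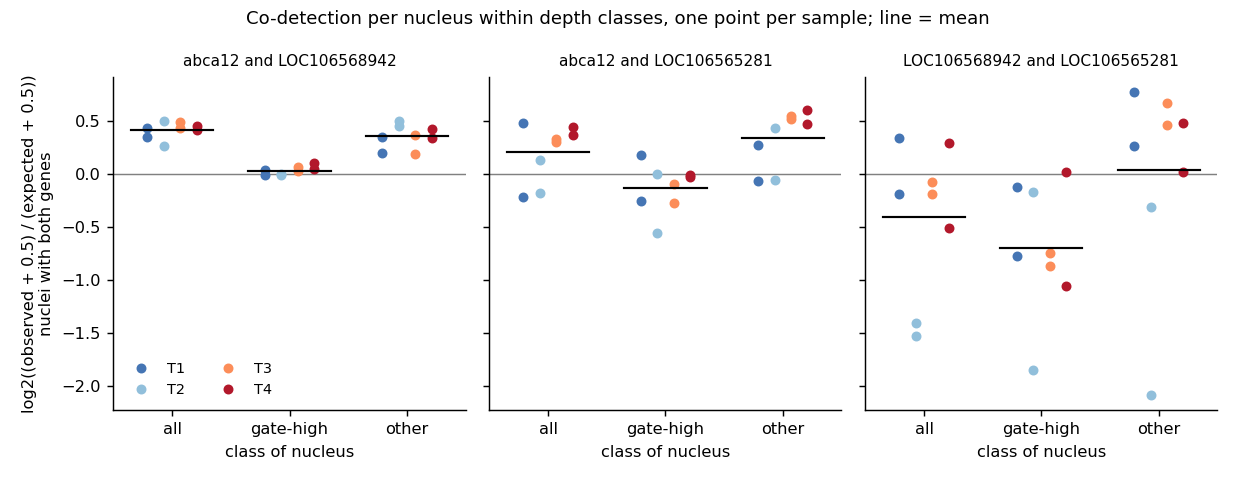
Co-detection of each pair, as log2 of (observed + 0.5) over (expected + 0.5) nuclei with both genes (vertical axis), in all, gate-high and other nuclei; points are samples coloured by state, lines are means over 8 samples, and 0 is the number expected. The abca12 and LOC106568942 pair lies above 0 in all nuclei and in other nuclei and near 0 in gate-high nuclei. LOC106568942 with LOC106565281 lies below 0 in 7 of 8 samples of gate-high nuclei, on very few nuclei at T1 and T2.

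Over the 4 states the 3 genes moved by different amounts, and none passed the threshold of 0.01 in all, gate-high or other nuclei in the edgeR fit without a block. The share of all genes called was 0.00403% for T2 against T1, 0.125% for T3 against T1, 0.302% for T3 against T2 and 0% for T4 against T3 in all nuclei. In gate-high nuclei it was 0.0313%, 0.274%, 0.901% and 0%, and in other nuclei 0.00838%, 0.117%, 0.222% and 0%. The last contrast, seawater against T3, called 0 genes in each of the 3 classes. Of the 24815, 12763 and 23855 genes tested, 504, 338 and 566 had an edgeR unadjusted p under 0.05. In each class this was a smaller share than 0.05. DESeq2 called 1, 0 and 0. In simulated counts, 200 genes were given a log2 change of 2 at T4. The same fit found 68.5% of them in all, 27% in gate-high and 69.5% in other nuclei. A call of 0 genes therefore does not show that no gene changed. In sums over all nuclei, a change in the mix of cells and a change per nucleus cannot be told apart.

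LOC106565281 had the largest differences. Over all nuclei it was at 5.36 and 2.07 CPM at T1 (20 and 6 UMIs), 14.7 and 5.95 at T2, 16.1 and 26.4 at T3, and 25.8 and 54.9 at T4 (113 and 152 UMIs). Both T3 samples lay above all T1 and T2 samples, T1 and T2 lay next to each other at 5.36 and 5.95, and T3 and T4 overlapped. How many other genes were ordered in this way was not counted. Its log2 fold change for T3 against T1 was 2.399 ± 0.590 (SE; edgeR adjusted p = 0.0715), and over 14 alternatives the adjusted p ran from 1.63e-07 without a filter on low counts to 0.309 without T3 replicate 2, with DESeq2 at 0.00317. In other nuclei T3 against T1 gave 2.29 ± 0.56 (edgeR adjusted p = 0.0624, DESeq2 0.00985), and in gate-high nuclei 2.57 ± 0.76 (edgeR adjusted p = 0.14). Gate-high nuclei held 6 and 1 UMIs of LOC106565281 at T1 and 5 and 3 at T2. The gene met the count filter there only through T3 and T4 samples, so its gate-high value is given as a description. In the 77 T cell marker nuclei of T3 and T4 it had 0 UMIs, which allows up to 12.5 CPM (3 counts over these nuclei). From T3 to T4 its difference was 0.91 ± 0.47 (adjusted p = 1). The difference between gate-high and other nuclei in these changes did not pass, the smallest p being that for T3 against T2, at 1.74 ± 0.62 on the log2 scale (edgeR unadjusted p = 0.00506, adjusted p = 0.337). In this fit 0.0927%, 0.393%, 0.229% and 0% of the 22660 genes were called for the contrasts from T2 against T1 to T4 against T3.

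The transporter abca12 had smaller differences. Over all nuclei its means were 641 ± 129, 609 ± 57.0, 920 ± 95.6 and 1045 ± 122 CPM from T1 to T4 (SD, n = 2). In all, gate-high and other nuclei every T3 and T4 sample lay above every T1 and T2 sample. The share of all genes that separated in this way was not counted, so this order is a description. The edgeR log2 fold change for T3 against T1 was 0.47 ± 0.28 in all nuclei (adjusted p = 0.448), 0.35 ± 0.35 in gate-high nuclei (adjusted p = 0.745) and 0.57 ± 0.22 in other nuclei (adjusted p = 0.216). None passed under any alternative. For T4 against T3 the alternatives gave log2 fold changes of 0.065 to 0.32 in all, -0.044 to 0.47 in gate-high and 0.30 to 0.43 in other nuclei, with no call. The study names abca12 among the genes induced by 24 h of seawater in RNA of whole gill (FDR under 0.01). That is another measure, on other libraries, than the sums of nuclei used here. In T cell marker nuclei abca12 stood at 192 ± 40.4, 192 ± 102, 317 ± 119 and 418 ± 58.7 CPM from T1 to T4, and the part of that background in the differences outside the gate was not tested. LOC106568942 had means of 103 ± 27.1, 103 ± 10.6, 113 ± 11.6 and 98.4 ± 49.2 CPM, its 2 T4 samples spanned the range of all others, and its edgeR log2 fold changes over the 3 classes lay between -0.25 and 0.27, with no adjusted p under 0.813.

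**Figure D4:**
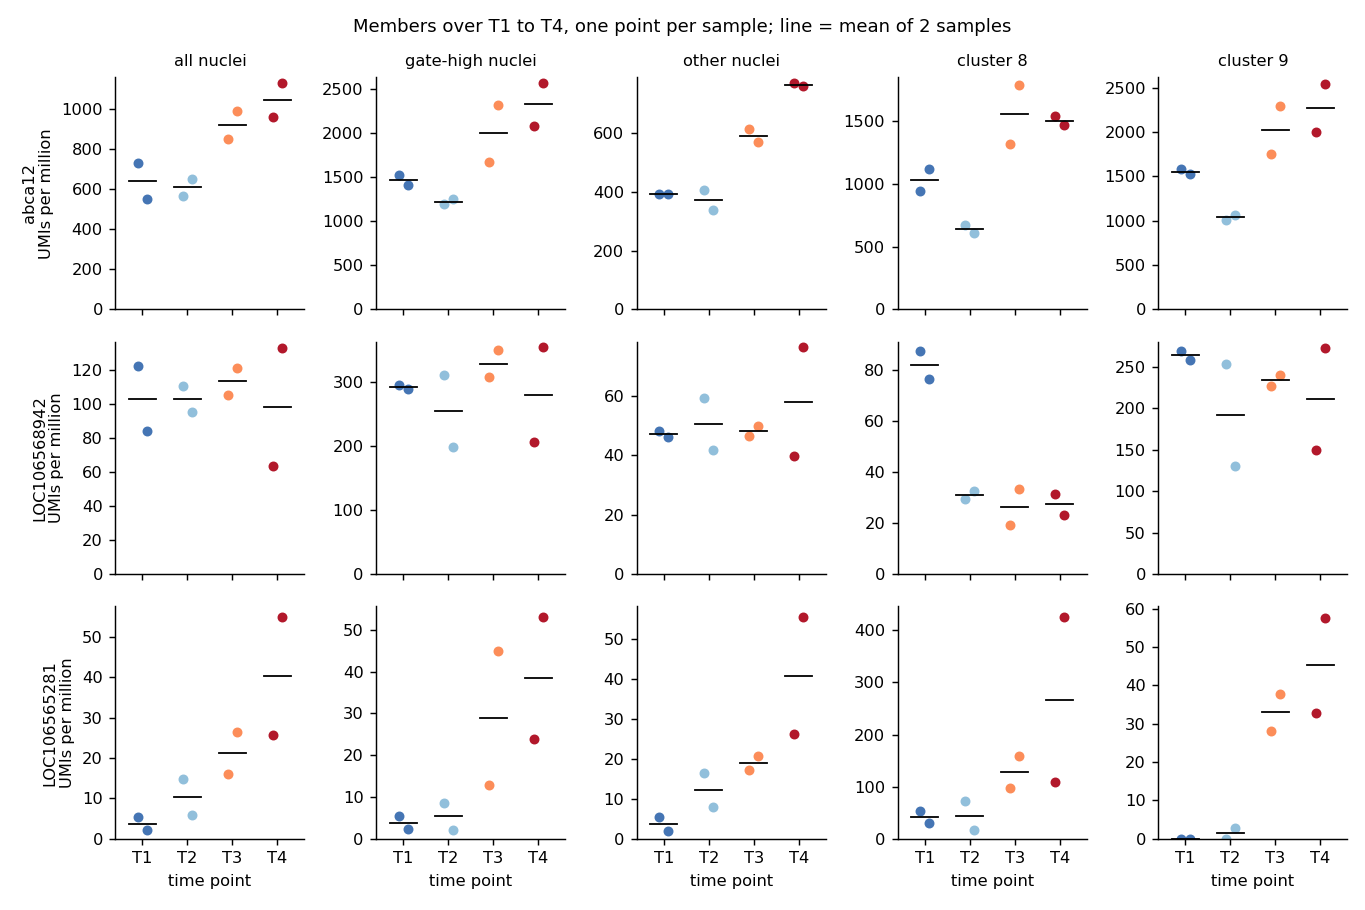
Level of each gene (rows; vertical axes, CPM) at T1 to T4 (horizontal axes) in all, gate-high and other nuclei and in clusters 8 and 9 (columns); points are samples and lines are means of 2 samples. abca12 is higher in the T3 and T4 samples than in those of T1 and T2 in the first 3 columns, LOC106568942 shows no order except in cluster 8, and LOC106565281 is lowest at T1 in all nuclei, with 5.36 and 2.07 CPM.

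Within single clusters, chosen after the levels were seen and by no fixed rule, 52 tests of the 3 genes were run over 5 clusters, with 1 adjusted p under 0.01. Cluster 6 was tested with 7.25% of the UMIs of abca12, while cluster 5, with 11.2% of those of LOC106565281, was not. Among all genes, the share called for T2 against T1, T3 against T1 and T3 against T2 was 0.0443%, 0.354% and 1.32% in cluster 1, 0.0531%, 1.26% and 1.58% in cluster 6, 0.0349%, 0.314% and 1.19% in cluster 8, 0.046%, 0.359% and 0.543% in cluster 9, and 0.067%, 0.234% and 0.804% in cluster 10, and 0% for T4 against T3 in each. In cluster 9 LOC106565281 had 0 and 0 UMIs in the T1 samples and 0 and 2 at T2, against 19 and 9 at T3 and 20 and 22 at T4. Every T3 and T4 sample lay above all T1 and T2 samples. The pooled T3 level of 30.6 CPM was 9.72 times a limit of 3 counts over the pooled T1 nuclei (3.15 CPM). This ratio carries no error for the T3 counts and is not a lower bound. The gene met the count filter in this cluster only through the T3 and T4 samples, and the cluster was chosen with the levels known, so its T3 against T1 call (edgeR adjusted p = 0.00774, beside 0.359% of the 10870 genes called) is given as a description and supports nothing further. It was not called without T1 replicate 1 (0.0846), T3 replicate 1 (0.0318) or T3 replicate 2 (0.0167). DESeq2 gave an unadjusted p of 0.000151 and no adjusted p. In cluster 8 its log2 fold change was 1.51 ± 0.67 for the same contrast (edgeR adjusted p = 0.394).

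Cluster 8 also held the only larger difference of LOC106568942. Its T1 samples had 87.7 and 76.4 CPM, all others 19.4 to 33.4, on 3 to 18 UMIs per sample. The log2 fold change for T3 against T1 was -1.64 ± 0.52 (edgeR adjusted p = 0.172). LOC106568942 met the count filter in this cluster only through the T1 samples, where it was high, so this value is given as a description. In the same cluster abca12 was at 671 and 612 CPM at T2 and 1321 and 1794 at T3, a log2 fold change of 1.14 ± 0.36 (adjusted p = 0.11). In cluster 10 abca12 was at 145 and 174 CPM at T1 and 495 and 377 at T3, a log2 fold change of 1.46 ± 0.42 (adjusted p = 0.104). None of these 3 passed.

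Other genes of barrier formation were compared between gate-high and other nuclei with the same fit, in lists chosen with earlier results of these data known. Over all lists 52 of 54 genes were tested, 33 were higher and 11 lower, with a median log2 fold change of 1.06, against 20.7% higher and 26.3% lower among all genes and a median of -0.10. Ceramide and very long chain lipid synthesis was higher in 13 of 13 genes, with a median of 1.96. The largest were 2 more ceramide synthase 2-like genes, LOC106587822 at 2.59 ± 0.13 and LOC106562576 at 2.46 ± 0.11 (SE), and fa2h, which hydroxylates the fatty acids of ceramides, at 2.29 ± 0.12. Scaling by library size, which moved the median of all genes to -0.39, left 13 of 13 higher. Of the turnover enzymes 1 of 4 was higher, LOC106576820 (sphingosine-1-phosphate lyase-like, which breaks down the sphingoid backbone) at 1.05 ± 0.11.

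Plakins and cornified layer proteins were higher in 7 of 8 genes with a median of 1.68, led by LOC106606992 and LOC106564908 (envoplakin-like, scaffold proteins of the cornified envelope) at 1.94 ± 0.12 and 1.83 ± 0.12 and by LOC106577692 (cornifelin-like) at 1.69 ± 0.11. The grainyhead factors, regulators of epithelial barrier genes, were higher in 3 of 3, led by LOC106613035 (grainyhead-like 3) at 1.80 ± 0.12. Desmosome genes were higher in 4 and lower in 1 of 8, from LOC106560389 (desmocollin-2-like) at 1.19 ± 0.11 to LOC106607413 (junction plakoglobin-like) at -0.74 ± 0.20. Keratins went both ways, with 3 higher and 7 lower of 11. LOC106572756 (keratin 18, of simple epithelia) was lowest at -1.95 ± 0.13 and LOC106564957 (keratin 13-like) highest at 1.47 ± 0.11.

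The families of the 3 genes were split too. Among transglutaminases LOC106583691 was higher at 1.99 ± 0.15, tgm1-1 at 1.84 ± 0.13 and LOC106573712 at 1.51 ± 0.48, the last on 59 UMIs and not called with DESeq2 or library size scaling (adjusted p = 0.0179 and 0.0247). By contrast tgm1 was lower at -1.61 ± 0.30 and tgm2 at -2.96 ± 0.24. Pooled over samples, tgm1 was at 3.66 CPM in gate-high and 14.5 in other nuclei, and tgm2 at 4.46 and 43.96. LOC106573712 was at 3.66 and 1.71 CPM. Whether these genes met the count filter only through the class where they were higher was not examined. Their values are therefore given as a description. Of the ceramide synthases LOC106562479 was higher at 2.19 ± 0.12 and LOC106570086 (cers2a) at 1.13 ± 0.13, and cers6 had -0.29 ± 0.25 (adjusted p = 0.343). ABCA1-like genes, relatives of the lipid exporter ABCA1, were lower at -1.85 ± 0.14 (LOC106602602) and -1.65 ± 0.14 (LOC106609880), and LOC106573884 (abca7) was higher at 0.69 ± 0.17. Several of these loci carry the same gene description, and whether reads were shared between them was not tested, so the values of single loci are uncertain.

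**Figure D5:**
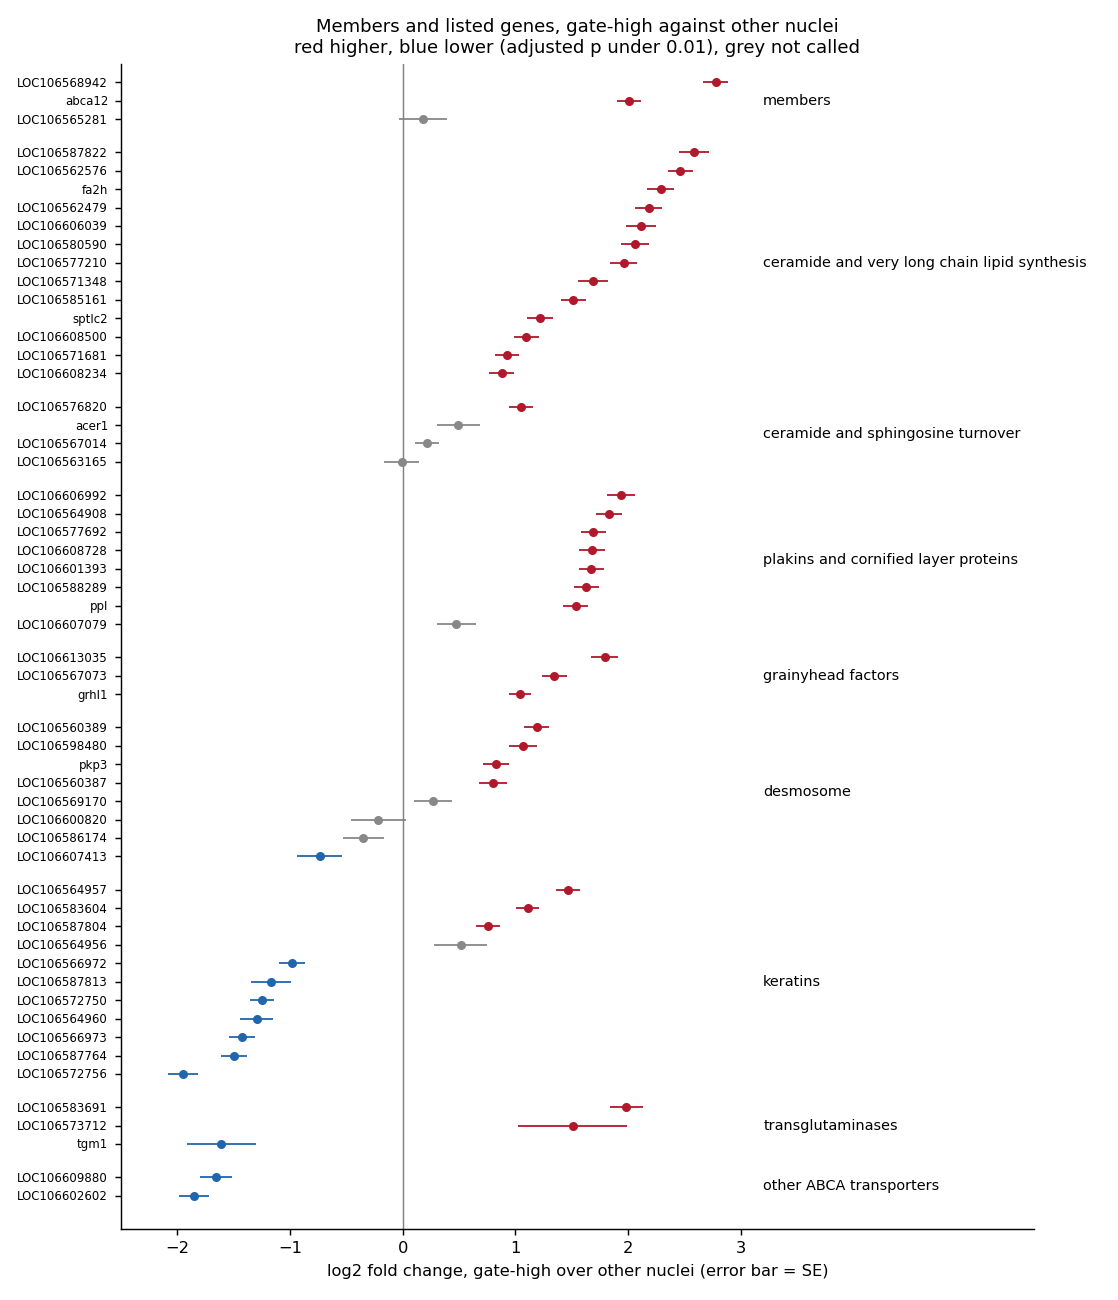
Log2 fold change of gate-high over other nuclei (horizontal axis; bars are SE, 8 samples with 2 sums each) for the 3 genes and for each listed gene that was tested (rows, grouped by list), red for higher and blue for lower at an adjusted p under 0.01 and grey for not called. The 13 lipid synthesis genes and 7 of 8 plakin and cornified layer genes lie on the side of abca12 and LOC106568942, and LOC106565281 lies near 0.

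Over the 4 states few of the listed genes passed. In all nuclei and in other nuclei the lists had no called gene, and in gate-high nuclei LOC106577210 (acyl-CoA desaturase-like, which makes monounsaturated fatty acids) was higher at T3 than at T2 by 1.92 ± 0.29 on the log2 scale (edgeR adjusted p = 0.00226), beside 0.901% of genes called. It was the only listed gene called in clusters 1 and 9, for T3 against T2, at 1.84 ± 0.31 and 2.09 ± 0.32 (edgeR adjusted p = 0.00233 and 0.00115), where 1.32% and 0.543% of genes were called. Of the nuclei of these clusters 70.0% and 68.6% were gate-high. These calls therefore share nuclei and libraries with the gate-high call and do not repeat it independently. Whether the gene met the count filter only through the states where it was high was not examined.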

How the data were processed

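Gill nuclei of 8 samples were measured, 2 at each of T1 to T4. The deposited counts are UMIs per gene and nucleus, made by the authors with Cell Ranger, which the protocol in the labels and the submitters' processing notes (3.0.1) give in different versions, on the ICSASG_v2 genome with NCBI annotation. The values were whole numbers and not normalized. Gene names were taken from the study's gene tables and a RefSeq table of another assembly, so no positions or sequences are given. The members and lists were chosen with earlier results of these data known.

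UMIs were summed per sample over all, gate-high and other nuclei. Sums were tested with edgeR 4.0.16 in R 4.3.3 (quasi-likelihood, TMM, filterByExpr with a minimum count of 10, Benjamini-Hochberg adjustment over all genes tested, threshold 0.01), with the 4 states in one fit, or with the sample as a block for gate-high against other nuclei. SE is the log2 fold change over the square root of F. Each member was also tested with exact sign-flip permutation tests, read at 0.05, on log2(value + 1), and co-detection with a pseudocount of 0.5. Nuclei were clustered with Seurat 5.3.0 (anchors, 2000 variable genes, 30 dimensions, resolution 0.4). The scripts were tested on simulated data. Named were the 3 members, up to 3 called genes of each list with the largest change, called genes of the same families, and the 3 genes most like each member. Scrublet in scanpy 1.11.5 marked 16 nuclei (0.081%), too few to be used, so no doublets were removed and the 2% of nuclei with the highest scores were left out as an alternative. Other alternatives were DESeq2 1.42.0, no filter, nuclei of at least 200 and under 2500 genes, hemoglobin genes left out, a replicate block, gates at 2 and 8 per 1000, other depth classes, thinning, each sample left out and, chosen after seeing the data, library size scaling and single clusters. Depth is given in the text as ranges over samples.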

Additional observations from a re-analysis of the deposited data

How the results depend on the processing

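The higher levels of abca12 and LOC106568942 in gate-high nuclei passed under every alternative run, with log2 fold changes of 1.54 to 2.25 and 2.29 to 2.85 at an adjusted p of 0.01. Their exact sign-flip p was 0.0078 under each alternative with 8 samples and 0.0156 with any sample left out, each the smallest that 8 or 7 samples allow. LOC106565281 changed direction in that comparison with library size scaling (-0.065) and a gate at 8 per 1000 (-0.94), passed at 2 per 1000 (0.77), and ran from -0.12 to 0.28 with single samples left out. Its within-sample log2 difference was 0.40 with a gate at 2 per 1000 (exact p = 0.18) and -1.58 at 8 (exact p = 0.0156). Over the states, 1 of the 3 genes, LOC106565281, passed for T3 against T1 with DESeq2 in all and in other nuclei, and without a filter in all, gate-high and other nuclei, in gate-high nuclei also for T3 against T2 and in other nuclei for T2 against T1. Its gate-high calls rest on 6 and 1 UMIs at T1 and 5 and 3 at T2, so they are given as a description. Without a filter the genes called for T3 against T1 in all nuclei went from 31 to 1183, with DESeq2 to 291 and with nuclei of at least 200 and under 2500 genes to 21, and for T3 against T2 from 75 to 1328, 395 and 33. In gate-high nuclei they went from 35 to 288 and 75 and from 115 to 441 and 156 without a filter and with DESeq2, and in other nuclei from 28 to 1326 and 258 and from 53 to 1313 and 331, with 9 and 16 in nuclei of at least 200 and under 2500 genes. For T2 against T1, counts of 1, 4 and 2 in all, gate-high and other nuclei became 265, 82 and 339 without a filter and 32, 13 and 26 with DESeq2, and for T4 against T3 counts of 0 became 51, 20 and 73 without a filter. With single samples left out the counts in all nuclei for T3 against T1 and T3 against T2 ran from 0 to 26 and from 4 to 67. DESeq2 called 1, 25 and 6 genes against 21, 89 and 52 for class differences in change, in the order T2 against T1, T3 against T1 and T3 against T2, and library size scaling gave 94 higher and 44 lower for T3 against T2 in gate-high nuclei against 64 and 51. The cause was not tested. The replicate numbers were not used as pairs in the main fit. Correlations of same-numbered samples ran from -0.137 to 0.203, and were 0.202, 0.171 and 0.203 between T3 and T4 in all, gate-high and other nuclei. Whether same-numbered samples share anything is not known from the labels, and these correlations cannot decide it. With a replicate block 27 and 77 genes were called for these contrasts in all nuclei, T3 against T2 in other nuclei went from 53 to 91, and LOC106565281 stayed uncalled in all nuclei (adjusted p = 0.0848). The gate-by-state fit has the sample as its block.

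Uncalled log2 changes that crossed 0 were, for T2 against T1, LOC106568942 in all nuclei with library size scaling (-0.007), and LOC106565281 in gate-high nuclei with the block (-0.22), library size scaling (-0.03) and nuclei of at least 200 and under 2500 genes (-0.59). LOC106568942 had -0.082 in gate-high nuclei for T3 against T1 with a gate at 2, 0.13 in other nuclei for T3 against T2 with a gate at 8, and -0.12 and -0.10 for the class difference in T3 against T1 at gates of 2 and 8. For abca12 the class difference in T2 against T1 was 0.061 with a gate at 8. With single samples left out, LOC106568942 ran, for T2 against T1, T3 against T1, T3 against T2 and T4 against T3 in turn, from -0.29 to 0.44, -0.24 to 0.50, -0.071 to 0.18 and -0.83 to 0.24 in all nuclei, from -0.42 to 0.066, -0.05 to 0.18, -0.001 to 0.49 and -0.69 to 0.083 in gate-high nuclei, and from -0.19 to 0.37, -0.094 to 0.11, -0.36 to 0.20 and -0.25 to 0.68 in other nuclei. LOC106565281 in gate-high nuclei ran from -0.86 to 1.02 for T2 against T1 and from -0.30 to 1.56 for T4 against T3. For abca12 T2 against T1 ran from -0.31 to 0.29 in all and from -0.23 to 0.10 in other nuclei, and T4 against T3 from -0.044 to 0.47 in gate-high nuclei. Class differences in change ran from -0.46 to 0.16, -0.60 to 0.013, -0.46 to 0.18 and -0.54 to 0.073 for abca12 over the 4 contrasts, from -0.05 to 0.073 for LOC106568942 in T3 against T1, and from -0.59 to 0.98 and -1.32 to 0.25 for LOC106565281 in T3 against T1 and T4 against T3.

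In co-detection, given as the mean log2 of observed over expected, abca12 with LOC106568942 in gate-high nuclei was 0.069 with a gate at 2 (exact p = 0.0078), -0.0171 with a gate at 8 and 0.0238 to 0.0405 with samples left out, and in other nuclei 0.26 after thinning to 500 UMIs (exact p = 0.125). The abca12 and LOC106565281 pair was 0.17 to 0.27 in all nuclei with samples left out and 0.21 with nuclei of at least 200 and under 2500 genes (exact p = 0.0391), -0.17 to -0.068 in gate-high nuclei, and in other nuclei 0.31 to 0.40 with samples left out (exact p = 0.0312 to 0.0625, where its p with 8 samples was 0.0312 before and 0.0702 after adjustment) and 0.28 after thinning (exact p = 0.344). LOC106568942 with LOC106565281 was -0.69 in all nuclei of at least 200 and under 2500 genes (exact p = 0.0078), and in gate-high nuclei -0.38 after thinning and -0.66 with a gate at 8 (exact p = 0.312 and 0.0625). In other nuclei it was -0.0344 with 10 depth classes, -0.38 after thinning, -0.54 in nuclei of at least 200 and under 2500 genes, -0.29 and -0.15 with gates at 2 and 8, and -0.0696 to 0.34 with samples left out. Gate-high shares with a gate at 2 were 27.2% at T3 and 26.3% at T4, and with a gate at 8 were 8.66% at T2, 8.54% at T3 and 6.13% at T4.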

Other observations

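Outside the pavement nuclei, 2 other clusters held called changes of barrier-related genes over the states. LOC106562576, a ceramide synthase 2-like gene, was higher at T3 than at T1 in the ionocyte-like cluster 6 by a log2 fold change of 2.16 ± 0.41 (SE; edgeR adjusted p = 0.00236) and higher at T3 than at T2 in the goblet cell-like cluster 10 by 2.69 ± 0.53 (adjusted p = 0.00444), while in all nuclei no listed gene was called. In cluster 6 the simple epithelial keratin gene LOC106572756 (keratin 18) was also higher at T3, by 2.75 ± 0.49 over T1 and 4.42 ± 0.61 over T2 (adjusted p = 0.00141 and 8.17e-05). The keratin 13-like gene LOC106587804 was lower at T3 than at T2 by -2.68 ± 0.56 (adjusted p = 0.00542), and LOC106586174 (plakophilin-4-like, a junction protein) was lower at T3 than at T1 by -3.04 ± 0.54 (adjusted p = 0.00137). In cluster 6, 1.26% and 1.58% of the 7533 genes tested were called for T3 against T1 and against T2, and 0.804% of 2986 genes were called for T3 against T2 in cluster 10. These clusters were chosen for tests after the levels were seen. Whether these genes met the count filter only through the states where they were high was not examined. Their calls are therefore given as a description. Clusters 6 and 10 were fitted with the main settings only, on 2 samples per state, so how these calls depend on the processing was not tested. Within a cluster too, a change in the mix of cells and a change per nucleus cannot be told apart.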
